A study of Homo sapiens with 6 samples.

Results

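The genes examined here encode the SR proteins and the heterogeneous nuclear ribonucleoproteins (hnRNPs), the main families of RNA-binding proteins that choose splice sites. They were taken as the protein-coding genes on chromosomes 1 to 22 whose symbol begins with HNRNP or is SRSF followed by a number. This gave 37 of 19122 genes, namely 12 SR genes and 25 hnRNP genes. Of the hnRNP genes, 6 (HNRNPCL1 to HNRNPCL4, HNRNPA1L2 and HNRNPA1L3) are near-identical copies of HNRNPC or HNRNPA1, where short reads could be placed at the wrong copy, so their values are uncertain. The study mapped NONO, H3T11ph and H3K27ac by CUT&Tag, in which Tn5 transposase, held at the target by an antibody, cuts out the nearby DNA for sequencing. All libraries came from the cell line MDA-MB-231 (triple negative breast cancer). NONO was mapped in control cells (NC, genotype WT in the labels) and in NONO knockdown cells (NONO-KD), and both histone marks in NC and in PKM2 knockdown cells (PKM2-KD). Each of the 6 groups held 1 library. In the methods NC names the control of the siRNA transfections and Scr that of the shRNA viruses, so the label NC points to siRNA, though the agent is not stated for these libraries. The lists hold no RNA or protein levels that would show how far either knockdown went.

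SR proteins bind exonic enhancers through RNA recognition motifs and recruit the splicing machinery through tails rich in arginine and serine. The hnRNPs coat nascent transcripts and often repress the exons they bind, and members of both families regulate their own and each other's transcripts. hnRNPA1, hnRNPA2B1 and SRSF3 are known for setting which of the mutually exclusive exons of the PKM transcript is used, and so whether PKM1 or PKM2 is made. NONO is itself an RNA- and DNA-binding protein of paraspeckles that acts in transcription and RNA processing. H3T11ph, the phosphate on a threonine of histone H3, is placed by several kinases and, in its nuclear form, by PKM2, and H3K27ac is an acetylated lysine found at active promoters and enhancers.

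Promoter sequences are shown for 5 of the genes at which a NONO or H3T11ph region covered the start of transcription or the bases before it. They are from RefSeq on GRCh38.p14, run from 250 bases before to 50 after the annotated start, and are written 5′ to 3′ on the gene's strand. SRSF3 (chr6:36594112-36594411, plus strand), HNRNPF (chr10:43408808-43409107, minus), HNRNPK (chr9:83980566-83980865, minus) and HNRNPUL2 (chr11:62727408-62727707, minus) have in capitals the bases inside their H3T11ph region of NC. SRSF5 (chr14:69766892-69767191, plus) has in capitals the bases inside the NONO region of NONO-KD, since it was the only gene of these families with overlapping NONO regions at a gene end in NC and NONO-KD.
SRSF3: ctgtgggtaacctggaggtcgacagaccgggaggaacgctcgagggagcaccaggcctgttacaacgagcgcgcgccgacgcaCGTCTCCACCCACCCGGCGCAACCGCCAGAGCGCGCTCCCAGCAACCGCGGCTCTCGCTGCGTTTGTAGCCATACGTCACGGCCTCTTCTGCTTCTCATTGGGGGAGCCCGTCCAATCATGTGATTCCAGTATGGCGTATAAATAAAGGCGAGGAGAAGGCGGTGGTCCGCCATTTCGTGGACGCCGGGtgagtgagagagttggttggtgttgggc
SRSF5: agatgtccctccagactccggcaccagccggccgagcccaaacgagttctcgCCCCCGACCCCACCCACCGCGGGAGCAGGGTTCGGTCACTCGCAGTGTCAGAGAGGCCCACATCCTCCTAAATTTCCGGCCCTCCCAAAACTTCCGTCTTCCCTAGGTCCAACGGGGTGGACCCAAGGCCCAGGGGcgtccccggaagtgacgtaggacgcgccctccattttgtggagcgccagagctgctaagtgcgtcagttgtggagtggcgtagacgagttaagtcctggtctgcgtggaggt
HNRNPF: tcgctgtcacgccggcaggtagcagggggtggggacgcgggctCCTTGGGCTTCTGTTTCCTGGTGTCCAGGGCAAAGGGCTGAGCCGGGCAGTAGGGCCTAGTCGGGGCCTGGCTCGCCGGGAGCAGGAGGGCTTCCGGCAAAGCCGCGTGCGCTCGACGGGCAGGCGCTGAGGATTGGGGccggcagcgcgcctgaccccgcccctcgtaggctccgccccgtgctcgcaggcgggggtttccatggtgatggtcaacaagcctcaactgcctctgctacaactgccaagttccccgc
HNRNPK: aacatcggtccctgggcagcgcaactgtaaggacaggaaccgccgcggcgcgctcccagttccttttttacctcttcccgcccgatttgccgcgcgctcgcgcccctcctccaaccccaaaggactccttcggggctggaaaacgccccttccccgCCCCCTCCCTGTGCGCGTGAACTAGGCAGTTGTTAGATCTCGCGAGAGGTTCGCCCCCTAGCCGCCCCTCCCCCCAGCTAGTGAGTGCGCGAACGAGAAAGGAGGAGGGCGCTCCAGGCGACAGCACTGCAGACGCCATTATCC
HNRNPUL2: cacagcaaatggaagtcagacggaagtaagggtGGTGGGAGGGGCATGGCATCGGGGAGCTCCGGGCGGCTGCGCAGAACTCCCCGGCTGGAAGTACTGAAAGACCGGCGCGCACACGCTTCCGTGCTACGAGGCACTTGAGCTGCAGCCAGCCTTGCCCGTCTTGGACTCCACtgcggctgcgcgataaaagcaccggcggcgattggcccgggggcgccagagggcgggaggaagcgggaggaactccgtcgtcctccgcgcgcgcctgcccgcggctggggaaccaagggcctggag

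The capitals run over 189 bases in SRSF3, 136 in SRSF5, 139 in HNRNPF, 144 in HNRNPK and 141 in HNRNPUL2. In SRSF3 they reach from 167 bases before the start to 21 after it, and in HNRNPK from 94 before to 49 after. In the others they end before the start, at 63 bases before it in SRSF5, 69 in HNRNPF and 77 in HNRNPUL2. The whole printed window of SRSF5 lay inside its NONO region of NC, and 269 of the 300 bases of HNRNPUL2 did so too. Promoter windows were found for 33 of the 37 genes. HNRNPCL3, HNRNPA1, HNRNPA1L3 and SRSF2 had none.

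These windows were richer in CpG than most. The ratio of observed to expected CpG had a median of 0.94 over the 33 windows and 0.77 over all 15100, and it was at least 0.6 in 28 of 33 windows (84.8%) against 66.3% of all. Median GC content was close, 63.7% against 63.0%. Searched on both strands, the GC box GGGCGG was in 20 of 33 windows (60.6%, all genes 58.9%), CCAAT in 16 (48.5%, 36%), TATAAA in 5 (15.2%, 9.71%) and the ETS core CCGGAAG in 5 (15.2%, 14.4%). SRSF3 held 2 matches of CCAAT and 1 of TATAAA, while HNRNPK held 3 of the GC box and none of the others.

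The values that follow are heights of the deposited regions. A region is 1 row of a list, and it was counted at a gene when it overlapped by at least 1 bp the window of 1 kb either side of either gene end. Its height is the number of fragments piled up at its summit, recovered from the deposited fold and −log10 p, and its background is the number the caller expected there. Depth recovered in the same way was 3.34 and 2.84 fragments per kb in the NONO lists of NC and NONO-KD, 3.35 and 3.42 in the H3T11ph lists of NC and PKM2-KD, and 7.46 and 7.48 in the H3K27ac lists. A gene without a region had no signal past the caller's threshold at this depth, which is not absence of the protein or mark. Heights also grow with the fragment length used in calling, taken as the narrowest width. For NONO it was 269 bp in NC and 98 bp in NONO-KD. For H3T11ph it was 111 bp in NC and 91 bp in PKM2-KD, and for H3K27ac 112 and 113 bp. Heights were not scaled for this. The NONO and H3K27ac lists of NC were made in another form than their knockdown lists, with 94.5% and 79.1% of regions at exactly the narrowest width against 1.19% to 2.06% in the other 4 lists. In these pairs knockdown and calling cannot be told apart, and the H3T11ph pair alone was of 1 form. As a check of the cell line, H3K27ac was at 7 of 7 mesenchymal and basal genes and at 6 of 8 luminal and epithelial genes in each of its lists, so it did not separate these markers sharply.

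H3T11ph was found at a larger share of the splicing factor genes than of all genes. In NC, 18 of the 37 genes (48.6%, 95% Wilson interval 33.4% to 64.1%) had an H3T11ph region at a gene end, against 18.2% of all 19122 genes. In PKM2-KD the count was also 18, against 17.6%. The SR genes had it at 8 of 12 in NC and 6 of 12 in PKM2-KD, and the hnRNP genes without the copies at 9 and 12 of 19. Both intervals for the whole list lie above the share of all genes, but they cover counting error only, treat genes as independent and say nothing of another culture.

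**Figure D1:**
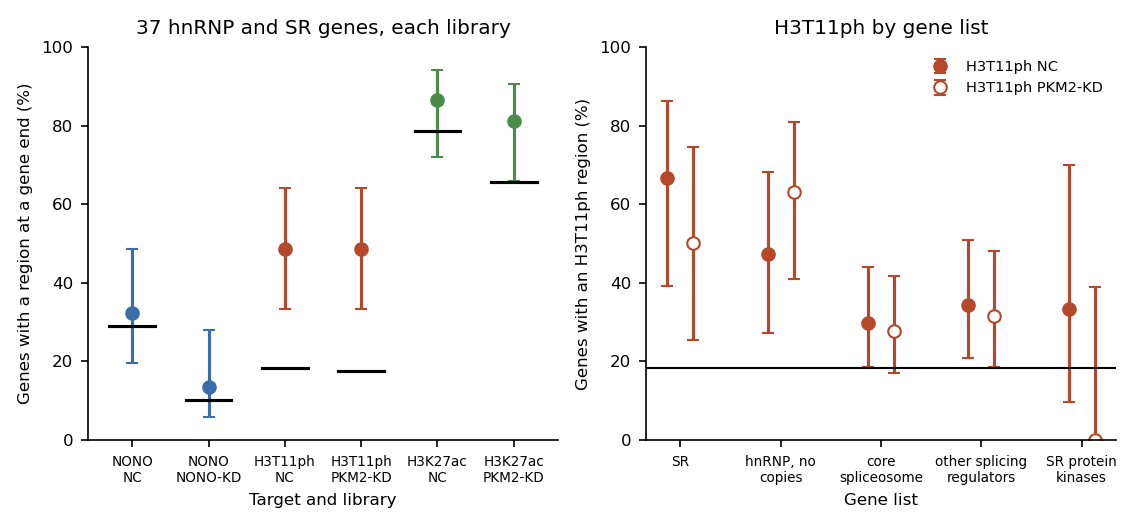
Left, percent of the 37 hnRNP and SR genes with a region within 1 kb of a gene end in each of the 6 libraries (points, with 95% Wilson intervals for counting error) and of all 19122 genes (black lines). Right, the same for H3T11ph in 5 gene lists, in NC (filled) and PKM2-KD (open), with the black line at 18.2%, the share of all genes in NC. The H3T11ph points on the left stand at 48.6% in both libraries, and the NONO points lie close to their lines.

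The share stayed high where H3K27ac was present or strong. Among genes with an H3K27ac region at an end in NC, 17 of 32 splicing factor genes had H3T11ph in NC, against 20.2% of all such genes. Among genes whose tallest H3K27ac region of NC reached 40 fragments, a limit chosen after the values were seen, the counts were 11 of 20 in NC and 13 of 20 in PKM2-KD, against 36.1% and 38.8% of all such genes. The first of these has an interval of 34.2% to 74.2%, which includes the share of all such genes, while the second, from 43.3% to 81.9%, does not. Genes with tall H3K27ac thus had H3T11ph more often in general, and the part of H3K27ac level in the list's share was not tested further.

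Base composition and neighbours were looked at in the same way. Among promoters with an observed to expected CpG ratio of at least 0.6, 15 of 28 of the splicing factor genes had an H3T11ph region within 1 kb of the 5′ gene end in NC (interval 35.8% to 70.5%, all such genes 18.5%), and 13 of 28 in PKM2-KD (29.5% to 64.2%, 19%). Another gene has an end within 1 kb of 13 of the 37, as MFSD11 does at SRSF2 and TTC9C at HNRNPUL2, so that a region there cannot be given to either gene. Of the H3T11ph regions at these genes, 7 of 22 in NC and 9 of 20 in PKM2-KD lay within 1 kb of another gene's end. Among these were regions at HNRNPA1 (CBX5), HNRNPK (RMI1), HNRNPH3 (PBLD) and HNRNPDL (ENOPH1). Among the 24 genes with no such neighbour, 11 had H3T11ph in NC and 10 in PKM2-KD, against 15.2% and 14.7% of all genes of that kind.

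Other splicing genes, from lists chosen by function, had H3T11ph less often than the SR and hnRNP genes. In NC each of these lists still had it more often than all genes (18.2%). Of 47 core spliceosome genes, 14 had it in NC (29.8%) and 13 in PKM2-KD (27.7%), among them SF1, PRPF8 and SNRPD2 in both. Of 35 other splicing regulators, 12 had it in NC (34.3%) and 11 in PKM2-KD (31.4%), with TRA2B, SRRM1 and SYNCRIP in both. Of the 6 kinases that phosphorylate SR proteins, CLK2 and CLK4 had it in NC and none in PKM2-KD, where 0 of 6 allows a share of up to 39.0% by the Wilson interval. The intervals of these lists overlapped that of the SR and hnRNP genes (18.7% to 44.0% for the core spliceosome in NC), so no difference between the lists is shown. In NC the intervals of the core spliceosome and of the other regulators (20.8% to 50.8%) lay above the share of all genes. That of the kinases (9.68% to 70.0%) included it, as did the core spliceosome interval in PKM2-KD (16.9% to 41.8%, all genes 17.6%). A raised share was thus not particular to the SR and hnRNP genes.

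**Figure D2:**
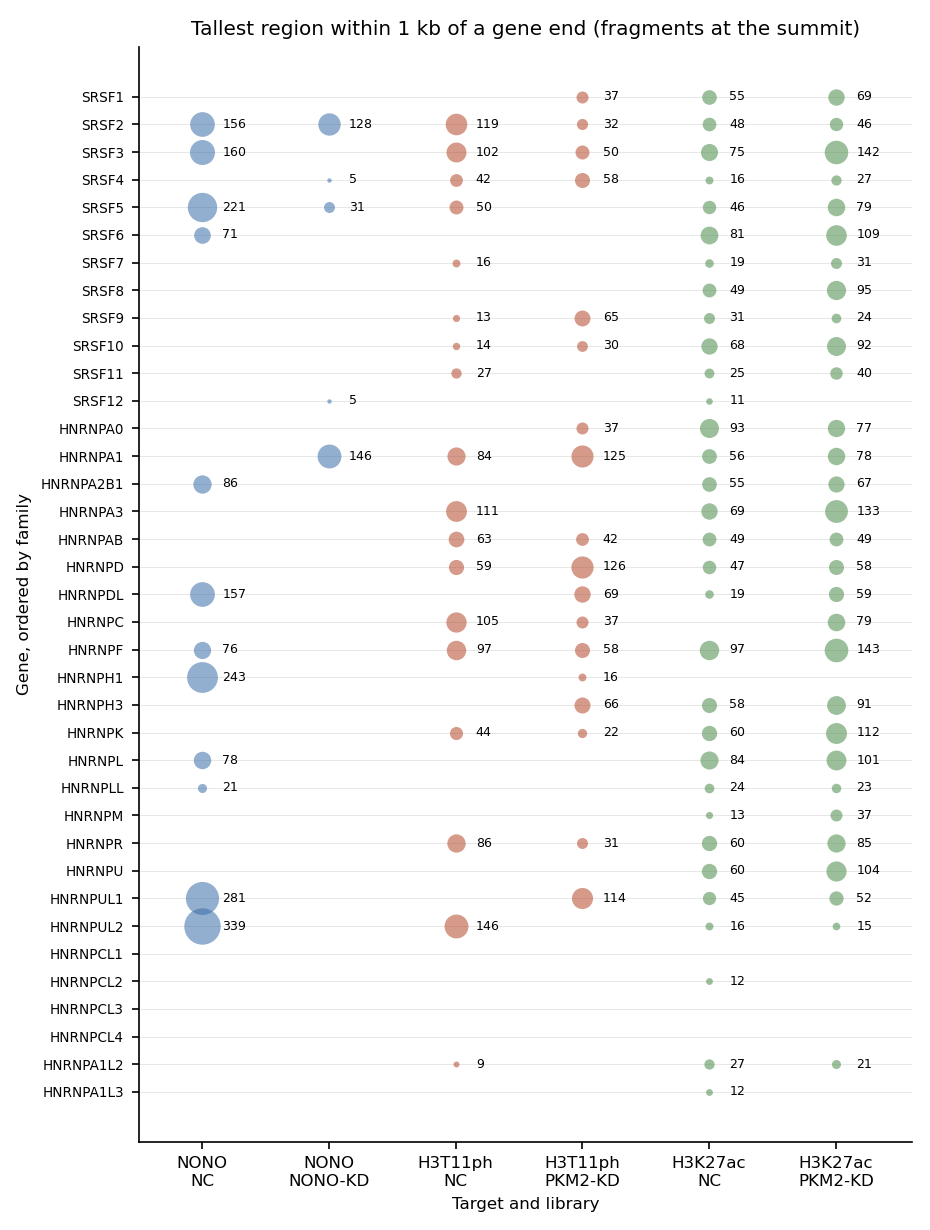
Tallest region within 1 kb of a gene end for each of the 37 genes (rows, by family) in each of the 6 libraries (columns); the area of a circle and the number beside it give the fragments at the summit, and an empty place is a gene with no region. NONO heights in NC run up to 339 at HNRNPUL2, and the 4 HNRNPCL copies are nearly empty.

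Among the SR genes, SRSF3, which encodes the smallest SR protein and acts in splicing and mRNA export, had a tall H3T11ph region, 102 fragments in NC and 50 in PKM2-KD at its promoter. At SRSF2, which encodes a protein of nuclear speckles, the heights were 119 and 32 at separate positions. SRSF4 had 42 and 58, SRSF9 13 and 65, and SRSF10, whose product represses splicing when dephosphorylated, 14 and 30. In NC alone there were regions at SRSF5 (50 fragments), SRSF11 (27) and SRSF7 (16), whose product also serves mRNA export. SRSF1, the best known oncogenic SR gene, had 1 of 37 fragments in PKM2-KD beyond its 3′ end, within 1 kb of VEZF1. SRSF6, SRSF8 and SRSF12 had none in either list.

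Among the hnRNP A/B and D genes, HNRNPA3 had 111 fragments in NC and no region in PKM2-KD. HNRNPAB held 4 regions around its 5′ end in NC, with 5 to 63 fragments, and in PKM2-KD 1 of 42 near its 3′ end instead. HNRNPA1, the best studied repressor of exon inclusion, had 84 and 125 fragments, in regions also within 1 kb of CBX5. HNRNPD, whose product binds AU-rich elements of messenger RNAs, had 59 and 126. HNRNPDL had 2 regions in PKM2-KD alone, of up to 69 fragments, and HNRNPA0 1 of 37 on a background of 18.005, the lowest fold of the H3T11ph regions at these genes (1.9995). HNRNPA2B1 had none at an end and 1 of 24 fragments inside the gene in NC. The copy HNRNPA1L2 had 1 of 9 fragments near its 3′ end in NC.

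Of the remaining hnRNP genes, HNRNPR had the highest fold of H3T11ph in NC, 60.8, with 86 fragments on a background of 0.43, and 31 fragments in PKM2-KD. HNRNPC, whose product binds uridine tracts, had 105 and 37, HNRNPF, a binder of G-tracts, 97 and 58, and HNRNPK, a binder of C-rich sequence, 44 and 22. HNRNPUL2 had 146 fragments in NC alone. HNRNPH3 (66), HNRNPUL1 (114) and HNRNPH1 (16) had regions in PKM2-KD alone. That of HNRNPH3 also lay within 1 kb of PBLD, and that of HNRNPUL1 within 1 kb of AXL. In PKM2-KD the highest folds were at SRSF9 (50.4), HNRNPH3 (47.9) and SRSF4 (45.0), and in NC those after HNRNPR were at HNRNPAB (46.6) and HNRNPA3 (46.0). HNRNPL, HNRNPLL, HNRNPM, HNRNPU and 5 of the copies had no H3T11ph region at an end.

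H3T11ph was at the 5′ end of more of these genes than at the 3′ end in both libraries. Of the 33 genes with a known strand, 15 had a region at the 5′ end in NC and 1 at the 3′ end, against 15% and 5.14% of all genes with a strand. In PKM2-KD the counts were 14 and 3, against 15.1% and 4.5%. Of 18 summits within 1 kb of a 5′ end in NC, 12 lay in the 400 bp upstream, against 47.0% of those of all genes, and the median position was −103.5 bp against −89 bp. In PKM2-KD 7 of 15 lay there, against 49.9%, and the median position was −34 bp against −83 bp. Counting any distance upstream within 1 kb, 14 of 18 lay there in NC, against 63.0% of all, and 8 of 15 in PKM2-KD, against 63.6%. The summits were few, and 4 of the 18 in NC were those of HNRNPAB, so no shift between the libraries is shown.

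**Figure D3:**
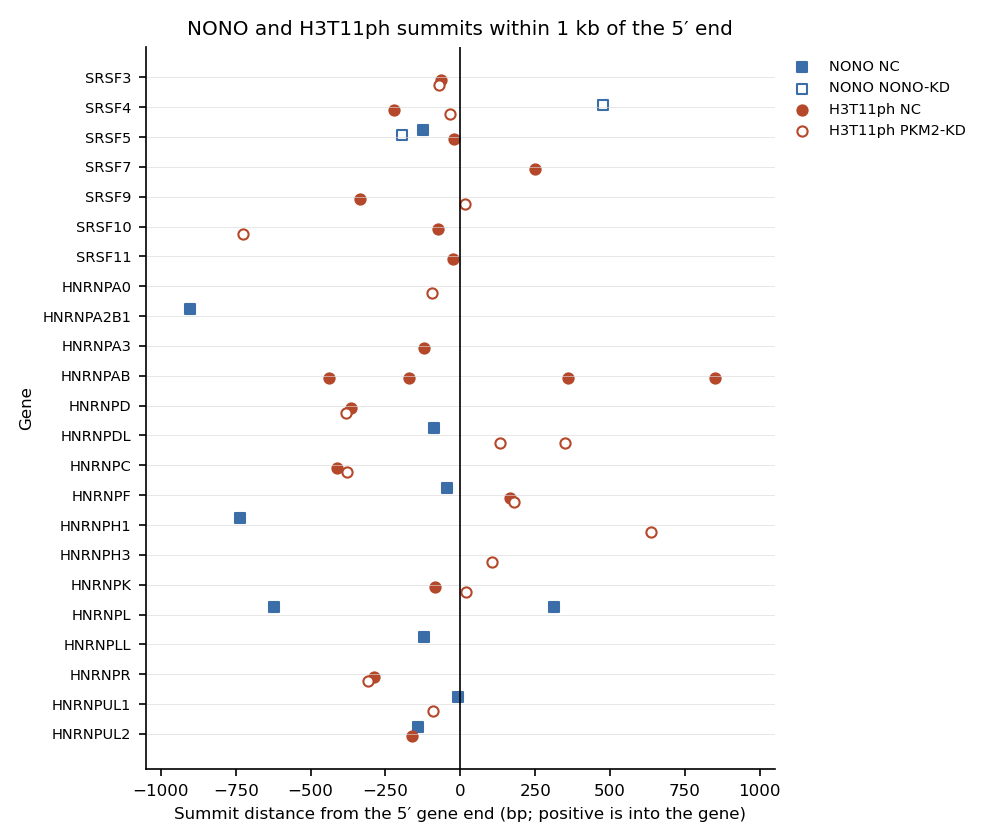
Distance of each NONO (squares) and H3T11ph (circles) summit from the 5′ gene end in bp, for the genes with a known strand and a summit within 1 kb of it; filled symbols are NC and open symbols the knockdown (NONO-KD or PKM2-KD). Filled and open circles nearly coincide at SRSF3, HNRNPD, HNRNPC, HNRNPF and HNRNPR and lie apart at SRSF10, SRSF9 and SRSF4.

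H3T11ph was in both libraries at most of the genes that had it in NC. Of the 18 with a region in NC, 12 had a region in PKM2-KD (66.7%, interval 43.7% to 83.7%), against 33.8% of all genes with a region in NC. By gene, 6 had it in NC only (12% of all genes), 6 in PKM2-KD only (11.5%) and 12 in both (6.14%). The 6 of NC only were SRSF5, SRSF7, SRSF11, HNRNPA3, HNRNPUL2 and the copy HNRNPA1L2. The 6 of PKM2-KD only were SRSF1, HNRNPA0, HNRNPDL, HNRNPH1, HNRNPH3 and HNRNPUL1. Of the 12 with both, 7 had regions that overlapped (HNRNPA1, HNRNPC, HNRNPD, HNRNPF, HNRNPK, HNRNPR and SRSF3). Over regions, 7 of 22 of NC overlapped 1 of PKM2-KD, against 17.2% of all regions at gene ends. At the other 5 genes the summits were apart, as at SRSF9 (335 bp upstream in NC, 16 bp into the gene in PKM2-KD) and SRSF10 (75 bp and 727 bp upstream).

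In the overlapping regions the heights went in both directions. At 5 of the 7 the height was lower in PKM2-KD, against 45.9% of overlapping regions at all gene ends, and the median ratio of PKM2-KD to NC was 0.50 against 1.07. The ratio was 0.35 at HNRNPC (95% exact interval 0.24 to 0.52), 0.36 at HNRNPR (0.23 to 0.55), 0.49 at SRSF3 (0.34 to 0.69), 0.50 at HNRNPK (0.29 to 0.85) and 0.60 at HNRNPF (0.42 to 0.84). It was 1.49 at HNRNPA1 (1.12 to 1.99) and 2.14 at HNRNPD (1.56 to 2.96). The last 2 stood on the highest backgrounds of the 7, 34.9 and 45.2 at HNRNPA1 and 26.7 and 23.7 at HNRNPD, while the 5 that were lower had backgrounds of 0.31 to 6.42. None of these intervals includes 1, but they cover the counting of fragments in 1 library per group and not the spread between cultures. They also take each fragment as a separate molecule, which is not known here. Nor were the ratios scaled for fragment length, 111 bp in NC and 91 bp in PKM2-KD, which favours larger heights in NC. The commonest background was 0.372 and 0.311 fragments. The upper limits nearest 1, at HNRNPK and HNRNPF, are the most exposed to this. With the tallest region of each gene in place of overlapping regions, 7 of 12 genes were lower in PKM2-KD, against 46.9% of all genes with both.

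**Figure D4:**
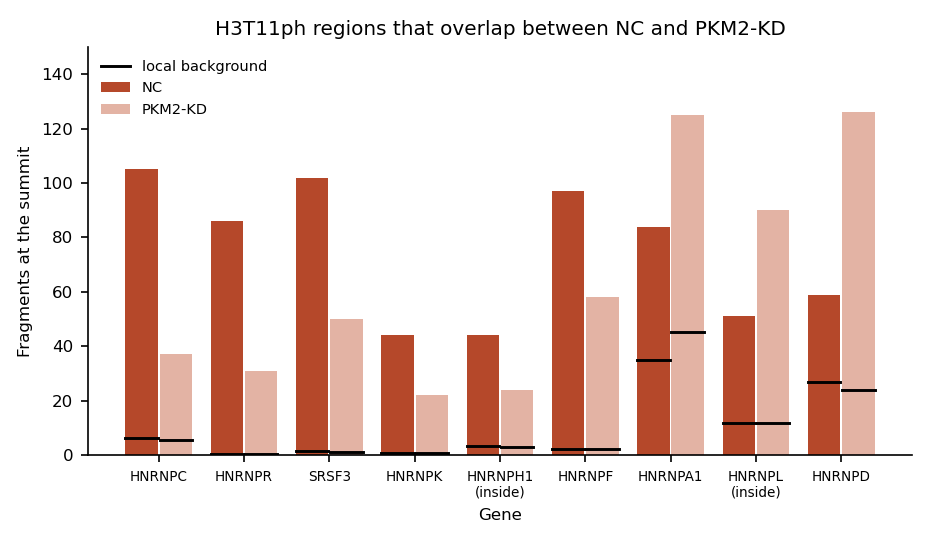
Fragments at the summit of H3T11ph regions that overlapped between NC (dark bars) and PKM2-KD (light bars), for 7 genes at a gene end and for HNRNPH1 and HNRNPL inside the gene; black lines give the background of each region. From the left, 6 genes were lower in PKM2-KD, with backgrounds of 0.31 to 6.42, and 3 were higher, with backgrounds of 11.6 to 45.2.

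Many tall H3T11ph regions were hardly wider than 1 fragment. The HNRNPR region of NC, with its 86 fragments, was 117 bp wide in a list whose narrowest region was 111 bp. Of 16 regions of at least 20 fragments at these genes in NC, 10 were at most 50 bp wider than the narrowest, against 65.4% of such regions at all gene ends, and in PKM2-KD 11 of 19 were, against 64.5%. A region this narrow leaves its fragments little room to begin at different bases. Duplicate handling is not given, so a height may count PCR copies of 1 molecule, and their part in these heights was not tested. When regions under 2 times the narrowest width were left out, the count of genes with H3T11ph was 2 in NC and 5 in PKM2-KD, and among all genes 3.67% and 3.65%.

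NONO was found at splicing factor genes about as often as at other genes. In NC 12 of 37 genes (32.4%, interval 19.6% to 48.5%) had a NONO region at an end, against 28.9% of all genes, and in NONO-KD 5 (13.5%, 5.91% to 28.0%), against 10.3%. A region in NC only was present at 10 genes (24.6% of all genes), in NONO-KD only at 3 (6%) and in both at 2 (4.28%). Of the genes with NONO in NC, 2 of 12 had it in NONO-KD, against 14.8% of all such genes.

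The NONO regions of NC were tall at several of these genes. The 3 highest folds were at HNRNPH1 (128, with 243 fragments 736 bp upstream of the 5′ gene end), at the 3′ end of SRSF3 (84.8, 160 fragments) and at SRSF2 (78.7, 156 fragments). HNRNPUL2 had the most fragments, 339, on a background of 7.64. HNRNPUL1, whose product acts with its relative HNRNPUL2 in the response to DNA damage, had 281, and SRSF5 had 221 on a background of 25.8. HNRNPDL had 157, HNRNPA2B1 86, HNRNPL 78, HNRNPF 76, SRSF6 71 at its 3′ end and HNRNPLL 21. Of the 13 regions, 4 also lay within 1 kb of an end of another gene. These were at HNRNPUL2 (TTC9C), HNRNPUL1 (AXL), HNRNPDL (ENOPH1) and HNRNPA2B1 (CBX3), and they cannot be given to either gene. The median of the tallest regions was 156.5 fragments over the 12 genes and 78 over all genes with a region. Backgrounds were raised as well, over 5 times the commonest in 6 of 13 regions against 20.3% of those at all gene ends.

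In NONO-KD regions stayed at SRSF5 and SRSF2 only. SRSF5 went from 221 fragments in NC to 31 in NONO-KD in overlapping regions, a ratio of 0.14 (exact interval 0.09 to 0.20), with the background at 25.8 and 3.15. Over all 208 overlapping NONO regions at gene ends the median ratio was 0.61, and 70.2% were lower in NONO-KD. These values were not scaled for the fragment lengths of 269 bp in NC and 98 bp in NONO-KD, which favour larger heights in NC. The commonest background was 0.899 and 0.278 fragments, so the size of any change cannot be read from these ratios. At SRSF2 the regions, with 156 and 128 fragments, did not overlap. HNRNPA1 had 146 fragments in NONO-KD and no region in NC, at the same bases where both H3T11ph lists had a region. That region also lay within 1 kb of an end of CBX5 and cannot be given to either gene. SRSF4 and SRSF12 had regions of 5 fragments each in NONO-KD, the fewest there.

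NONO and H3T11ph shared 5 genes in NC. Of the 12 genes with NONO in NC, 5 had H3T11ph (41.7%, interval 19.3% to 68.0%), against 26.6% of all genes with NONO, a share inside that interval. All 3 targets were at an end of 5 genes in NC, namely SRSF2, SRSF3, SRSF5, HNRNPF and HNRNPUL2 (13.5%, interval 5.91% to 28.0%), against 6.78% of all genes. With a window of 2.5 kb the count was 12, against 14.9% of all genes. Of the 13 NONO regions of NC at the gene ends, 2 overlapped an H3T11ph region of NC, those at SRSF5 and HNRNPUL2, against 9.1% at all gene ends. At HNRNPUL2 the summits lay 140 and 160 bp upstream of the 5′ gene end. At SRSF3 the NONO region was at the 3′ end and the H3T11ph region at the promoter.

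H3K27ac was present at nearly all of the genes that are not copies. It had a region at an end of 32 of 37 genes in NC (86.5%, interval 72.0% to 94.1%), against 78.7% of all genes, and of 30 in PKM2-KD (81.1%, 65.8% to 90.5%), against 65.6%. It was in both lists at 29 genes (58.3% of all genes), in neither at 4 (14.1%), in NC only at 3 (20.4%) and in PKM2-KD only at 1 (7.25%). The genes in neither were HNRNPCL1, HNRNPCL3, HNRNPCL4 and HNRNPH1, and those in NC only were HNRNPCL2, HNRNPA1L3 and SRSF12, a relative of SRSF10, with 12, 12 and 11 fragments. With a −log10 q of at least 5 asked of every region, none was in NC only, against 9.83% of all genes. HNRNPC was in PKM2-KD only, with 79 fragments, where its 2 regions stood on backgrounds of 14.6 and 44.95.

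The H3K27ac regions at these genes were tall. The tallest per gene had a median of 48.5 fragments in NC over the 32 genes, against 19 over all genes with a region, and 73 against 25 in PKM2-KD. Backgrounds were raised as well. They were over 5 times the commonest in 14 of 73 regions in NC, against 7.47% at all gene ends, and in 23 of 63 in PKM2-KD, against 16.1%. The median fold of the regions was 6.14 against 5.05 at all gene ends in NC, and 6.51 against 6.51 in PKM2-KD. The highest folds of NC were at SRSF6 (21.6, 81 fragments), HNRNPAB (18.5, 49 fragments) and SRSF10 (18.2, 68 fragments). Those of PKM2-KD were at HNRNPU (53.7, 104 fragments), SRSF6 (45.6, 109 fragments) and SRSF10 (40.4, 92 fragments). The folds of NC and PKM2-KD are not on the same scale, since only the pileups of NC had to be multiplied by 0.520877 to meet the deposited values. At HNRNPAB 49 fragments gave a fold of 18.5 in NC and 25.6 in PKM2-KD, on backgrounds of 0.84 and 0.96. The most fragments were at HNRNPF in both lists, 97 and 143.

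At 23 of the 29 genes with both, more bp within the windows were covered in PKM2-KD than in NC, against 74.3% of all genes with both, so the count is near that of genes in general. The median covered was 915 bp in NC and 1507 bp in PKM2-KD, against 482 and 761.5 bp for all such genes. HNRNPM went from 312 to 1248 bp, SRSF4 from 943 to 1856 and HNRNPAB from 1105 to 2120. HNRNPK was covered over all 2001 bp of the window at its 5′ end in both. HNRNPA3, HNRNPF, SRSF3, SRSF8 and HNRNPUL2 were covered over fewer bp in PKM2-KD. The different form of these lists bears directly on covered bp and cannot be told apart from the knockdown.

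**Figure D5:**
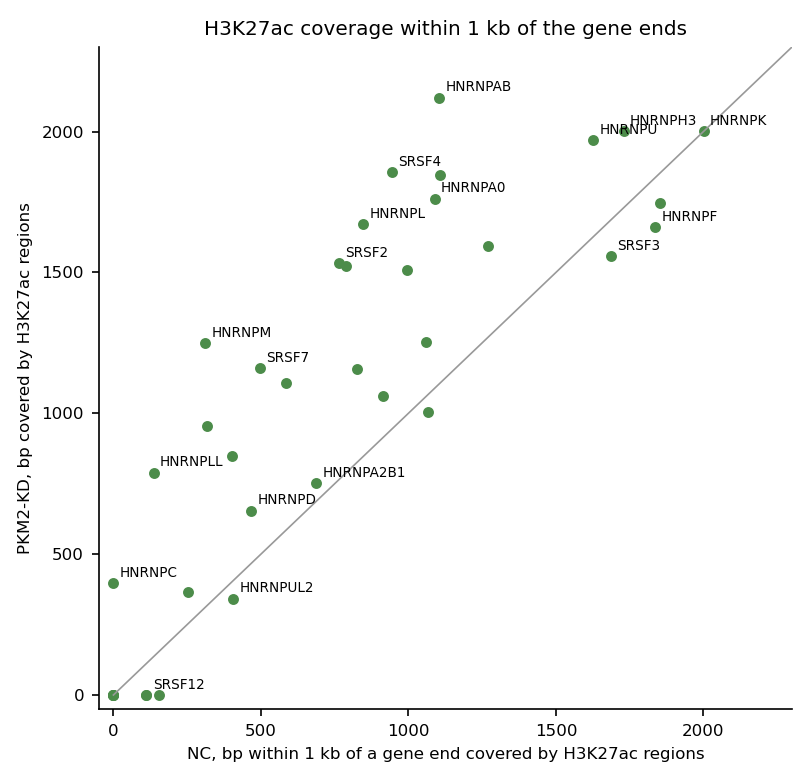
For each of the 37 genes, bp within 1 kb of a gene end covered by H3K27ac regions in NC (horizontal axis) and PKM2-KD (vertical axis), with the line of equal coverage in grey. Of the 29 genes with a region in both lists, 23 lie above the line, and HNRNPC lies on the vertical axis with 396 bp in PKM2-KD alone.

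Most H3T11ph regions at these genes overlapped H3K27ac. In NC 14 of 22 H3T11ph regions at the gene ends overlapped an H3K27ac region (interval 43.0% to 80.3%, all gene ends 43.4%), and in PKM2-KD 13 of 20 (43.3% to 81.9%, 56.9%). The share at all gene ends lies inside both intervals. Of the NONO regions of NC, 5 of 13 overlapped H3K27ac, against 33.6%. HNRNPUL2, with the tallest NONO and H3T11ph regions of NC among these genes, had H3K27ac of only 16 and 15 fragments, and its H3T11ph region overlapped none.

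Inside the genes, away from both ends, regions were counted per 100 kb, since the splicing factor genes are short, with a median length of 11504 bp against 24490.5 bp for all genes. NONO had 24 regions in NC and 7 in NONO-KD, or 4.26 and 1.24 per 100 kb against 3.41 and 1.52 over all genes. H3T11ph had 12 and 11, or 2.13 and 1.95 against 1.42 and 1.26, and H3K27ac had 129 and 62, or 22.9 and 11.02 against 21.9 and 8.39. At least 1 such region was present at 13 genes for NONO in NC (57.5% of all genes), 6 in NONO-KD (38.5%), 9 and 6 for H3T11ph (39.3% and 35.9%), and 28 and 19 for H3K27ac (82.1% and 68.6%). These densities were near those of all genes for NONO and H3K27ac in NC, and the H3T11ph counts are small.

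HNRNPF had the most regions inside the gene, alone or tied with others, in every list but NONO-KD, where HNRNPL had the most with 2. It held 14 H3K27ac regions inside in NC and 16 in PKM2-KD, 4 NONO regions in NC and 4 H3T11ph regions in PKM2-KD. An H3K27ac region 11890 bp from the 5′ end in NC was 1766 bp wide with 56 fragments, and that of PKM2-KD 11799 bp from it was 1867 bp wide with 66. The tallest NONO region inside HNRNPF in NC, of 165 fragments, lay 11754 bp from the 5′ end and overlapped both. HNRNPUL1 had 14 and 9 H3K27ac regions inside, HNRNPC 13 and 5, and HNRNPM 10 and 7.

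HNRNPH1 and HNRNPL carried several targets inside the gene and near each other. At HNRNPH1, about 11 kb downstream of the outermost annotated 5′ end, a NONO region of NC (100 fragments), H3T11ph regions of NC and PKM2-KD (44 and 24) and an H3K27ac region of PKM2-KD (84 fragments, 1865 bp wide) overlapped. No H3K27ac region lay at the annotated ends of HNRNPH1, so counts at its ends miss this stretch. Counts at the ends of SRSF11 likewise miss its promoter window, which lies inside the gene. An H3K27ac region of 64 fragments in NC covered 63 bases of that window, while the tallest at the ends of SRSF11 had 25. At HNRNPL, which encodes a binder of CA repeats, NONO regions of NC and NONO-KD (89 and 42 fragments) and H3T11ph regions of NC and PKM2-KD (51 and 90) had summits 2173 to 2323 bp into the gene, and the NONO region of NC overlapped the other 3. Backgrounds there were 24.1 and 8.004 for NONO and 11.6 and 11.9 for H3T11ph.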

How the data were processed

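CUT&Tag libraries of MDA-MB-231 cells (6, with 1 per group) were analysed from peak lists. The authors called peaks on each library alone and deposited rows whose score is 10 times −log10 q, whose fold is a ratio of summit over background, and whose deposited p-value and q-value are −log10 values. The submitters' processing notes name hg38, MACS2 2.1.1.20160309, cutadapt 1.18, SAMtools 1.3.1, FastQC 0.11.9 and DESeq2, and duplicate handling is not given in the sources used here.

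Genes were those of RefSeq GRCh38.p14. Pileups were recovered by trying whole fragment numbers until the deposited −log10 p was met within 0.002, which at least 99.98% of the rows tried met. In H3K27ac NC the pileup was first multiplied by a fitted 0.520877, and 6 of its 73 regions at these genes met more than 1 number, of which the closest was used. Depth is the commonest background over the narrowest width, taken as the fragment length. Scripts were tested on simulated data. Shares carry 95% Wilson intervals and height ratios exact binomial (Clopper-Pearson) ones, for counting error only. The intervals of ratios take each fragment as a separate molecule and are not scaled for the fragment length of each list. With 1 library per group no p-value was computed. The genes, lists and naming rule (every gene with NONO or H3T11ph at an end, the 3 highest folds and the 3 genes with most inside regions per list, and genes without H3K27ac in both lists) were chosen with earlier results of these data known. The analysis used Python 3.11.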

Additional observations from a re-analysis of the deposited data

Results flagged for a closer look

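HNRNPH2, the X-linked relative of HNRNPH1, is outside the chromosomes counted above and was looked at because the data hold it. It had 4 H3K27ac regions within 1 kb of a gene end in NC and 2 in PKM2-KD. It is listed because 4 is above the 3 that a count of 0 allows, which does not show that 4 is unusual. At least 1 such region was present at 78.7% of all genes on the chromosomes counted in NC, and the hnRNP and SR genes had up to 5 each. HNRNPH2 also had 1 H3T11ph region in PKM2-KD, and none in the H3T11ph list of NC or in either NONO list.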

How the results depend on the processing

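Of 103 recomputed counts, 72 stayed within 1.5 times the reported one, including every count with the summit required inside the window and every count without the near-identical copies. The width limit (at least 2 narrowest widths) moved most. It left 0 genes with NONO at an end in either list (1.24% of all genes in NC, 0.889% in NONO-KD). Hence it left 0 for NC alone, for NONO-KD alone and for both (1.14%, 0.79% and 0.0994%), and 0 with all 3 targets (0.126%). H3T11ph stayed at 2 genes of NC (3.67% of all genes) and 5 of PKM2-KD (3.65%), that is 2 found in NC alone (2.78%) and 0 shared (0.889%). H3K27ac changed to 0 genes of NC alone (5.59%) and 4 of PKM2-KD alone (16%). Inside the genes this limit left 2 NONO regions in NC, 0 in NONO-KD, 2 H3T11ph regions in NC, 1 in PKM2-KD and, for H3K27ac, 15 in NC with 28 in PKM2-KD. The stricter −log10 q of 5 gave NONO-KD 3 genes (9.75% of all genes), 1 of them without NONO in NC (5.92%). It gave H3K27ac 0 genes of NC alone (9.83%) against 3 of PKM2-KD alone (17.1%), and left 39 H3K27ac regions inside genes in NC. The 2.5 kb window placed NONO at 19 genes in NC (45.4% of all genes), 10 in NONO-KD (19.4%) and 7 in both (10.9%), raised H3K27ac of NC alone to 5 (18.3%), and all 3 targets to 12 (14.9%). Lists cut to equal length gave H3K27ac 1 gene of NC alone (9.62% of all genes) and 2 of PKM2-KD alone (19.4%). The 5′ end alone left NONO-KD with 2 genes (6.64% of all genes). Stricter settings hold fewer regions by construction, and the cause of the other shifts was not tested. Genes with H3T11ph at an end numbered 15 to 23 in NC and 14 to 20 in PKM2-KD under every setting but the width limit, with 15% to 27.3% and 15.1% to 25.9% of all genes. No paired analysis was possible because there was 1 library in every group, and for the same reason no library could be left out. Regions of few fragments lie near the limit of depth.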
